A study of Mus musculus with 24 samples.

Results

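A family of 10 glutathione transferase genes was followed over genotype and circadian time in mouse inguinal fat, a subcutaneous depot. They were Gsta3, Gsta4, Gstm1, Gstt1, Gstt2, Gstz1 and Gsto1 of the soluble classes and Mgst1, Mgst2 and Mgst3 of the membrane class. All 10 were measured, each by 1 probe set with a single gene symbol, among 19938 genes in all. The set was proposed because Gsta3 lay among the genes with the largest mean difference between genotypes, so the genotype differences of these genes are given as descriptions with no test. The tests concern circadian time, and whether the course over time differed by genotype.

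Knockout mice (Ad-Bmal1-/-) carried aP2-Cre+/- and Bmal1fx/fx, and control mice carried Bmal1fx/fx without Cre, so the groups differ by Cre as well as by the deletion. Bmal1, whose gene symbol is Arntl, pairs with CLOCK to drive the molecular clock. The aP2 promoter belongs to the fatty acid binding protein gene Fabp4, which is active in adipocytes and is also known from macrophages. Fat of 3 mice per genotype was taken at CT0 (when subjective day starts), at CT6, at CT12 and at CT18, which gave 24 arrays in 8 groups. Both genotypes had been backcrossed to C57BL/6J for 6 generations or more, ate chow, spent 36 h in darkness before the first tissue was taken, and were fasted for 24 h. Whether the mice of a group shared a litter, and their ages, were not stated.

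Glutathione transferases join the tripeptide glutathione to reactive, electrophilic molecules, which makes these more soluble and easier to export. The soluble enzymes fall into classes such as alpha, mu, theta, zeta and omega, and an unrelated family of membrane proteins, the MAPEG proteins, holds the microsomal enzymes. In fat, such enzymes are known for the removal of aldehydes that form when membrane lipids are oxidised. Many of their genes are targets of NRF2, a transcription factor that binds antioxidant response elements.

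The values are log2 expression made by the authors with RMA, so a difference of 1 is a doubling. The median over all genes lay between 6.46 and 6.56 on all arrays. The adipocyte markers Adipoq (11.77 to 12.13) and Fabp4 (12.38 to 12.66) were high on every array. Arntl itself did not check the deletion: its mean genotype difference was 0.01 ± 0.08 (SE), and whether its probe set lies in the deleted part is not known here. For Nr1d1, a gene that BMAL1 activates directly, the knockout minus control value was -0.48 ± 0.08 (SE).

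Some arrays stood apart. Earlier results of these data showed that 4 arrays lie toward the other genotype for many genotype-dependent genes: the control and knockout arrays of replicate 1 at CT12, and those of replicate 3 at CT18. Among the 10 genes, the knockout minus control difference within these pairs had the opposite sign to that of the other arrays for 8 genes at CT12 and for 6 at CT18. Some of these differences were near 0: for Gstz1 at CT12 the pair was at 0.02 and the other arrays at -0.06. The share of all genes with such a reversal was not counted, so these counts are not evidence about the arrays. Knockout replicate 2 at CT0 had the lowest value of all 24 arrays for 10 of 11 adipocyte markers, whose summed level on the log2 scale was 14.17 there and 14.45 to 14.78 elsewhere. Its 6 uterine epithelial markers summed to 10.03, against 8.07 to 8.43 on the other 23 arrays. The sums of mammary and skin epithelium (11.13, against 10.06 to 10.52) and smooth muscle (13.14, against 11.38 to 12.93) were also highest there. That array had the lowest sums of macrophage (11.58, against 11.68 to 12.85) and endothelial markers (11.35, against 11.51 to 12.06) too. It was also the lowest array for 7 of the 10 transferase genes, and the share of all genes for which it was the lowest was not counted. Results that rest on these arrays are given with and without them.

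Gsta3 encodes an alpha class enzyme that is known in mice for conjugating the epoxide of aflatoxin B1, and alpha class enzymes of this type also isomerise steroids. In control fat it read 10.79, 10.71 and 10.46 at CT0, 10.57, 10.25 and 10.48 at CT6, 10.18, 10.76 and 10.83 at CT12, and 10.84, 10.68 and 10.62 at CT18 (replicates 1 to 3). In knockout fat it read 9.81, 9.05 and 9.41 at CT0, 9.61, 9.63 and 9.75 at CT6, 10.75, 9.58 and 9.94 at CT12, and 10.16, 9.86 and 11.01 at CT18. At CT0 and CT6 the highest knockout array was lower than the lowest control. At CT12 and CT18 the groups overlapped, through knockout replicate 1 at CT12 and replicate 3 at CT18, both among the 4 arrays named above.

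The mean genotype difference of Gsta3 was -0.72 ± 0.13 (SE), a level 1.64 times as high in control as in knockout fat. It was -1.23 ± 0.26 at CT0, a 2.35-fold difference, and -0.77 ± 0.26 at CT6, -0.50 ± 0.26 at CT12 and -0.37 ± 0.26 at CT18. Leaving out knockout replicate 2 at CT0, the lowest array for Gsta3, gave -1.04 ± 0.28 at CT0. Without the 4 arrays the differences at CT12 and CT18 were -1.03 ± 0.19 and -0.75 ± 0.19, and the mean was -0.95 ± 0.09. Those arrays were set aside because they lie toward the other genotype, so leaving them out enlarges such a difference and lowers its SE by construction. The limma F test of genotype by time gave an unadjusted p of 0.132 for Gsta3 (adjusted p = 1.00 with all arrays and 0.952 without the 4), so a change of the genotype difference over the day was not shown. These are levels in whole fat, where fewer cells of a type and less RNA per cell cannot be told apart. The array with the highest summed level of 8 liver markers, knockout replicate 2 at CT6 (12.68, against at most 10.76 elsewhere), read 9.63 for Gsta3, between the other knockouts of that time. This is 1 array, and the part of liver RNA in the Gsta3 values was not tested.

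**Figure D1:**
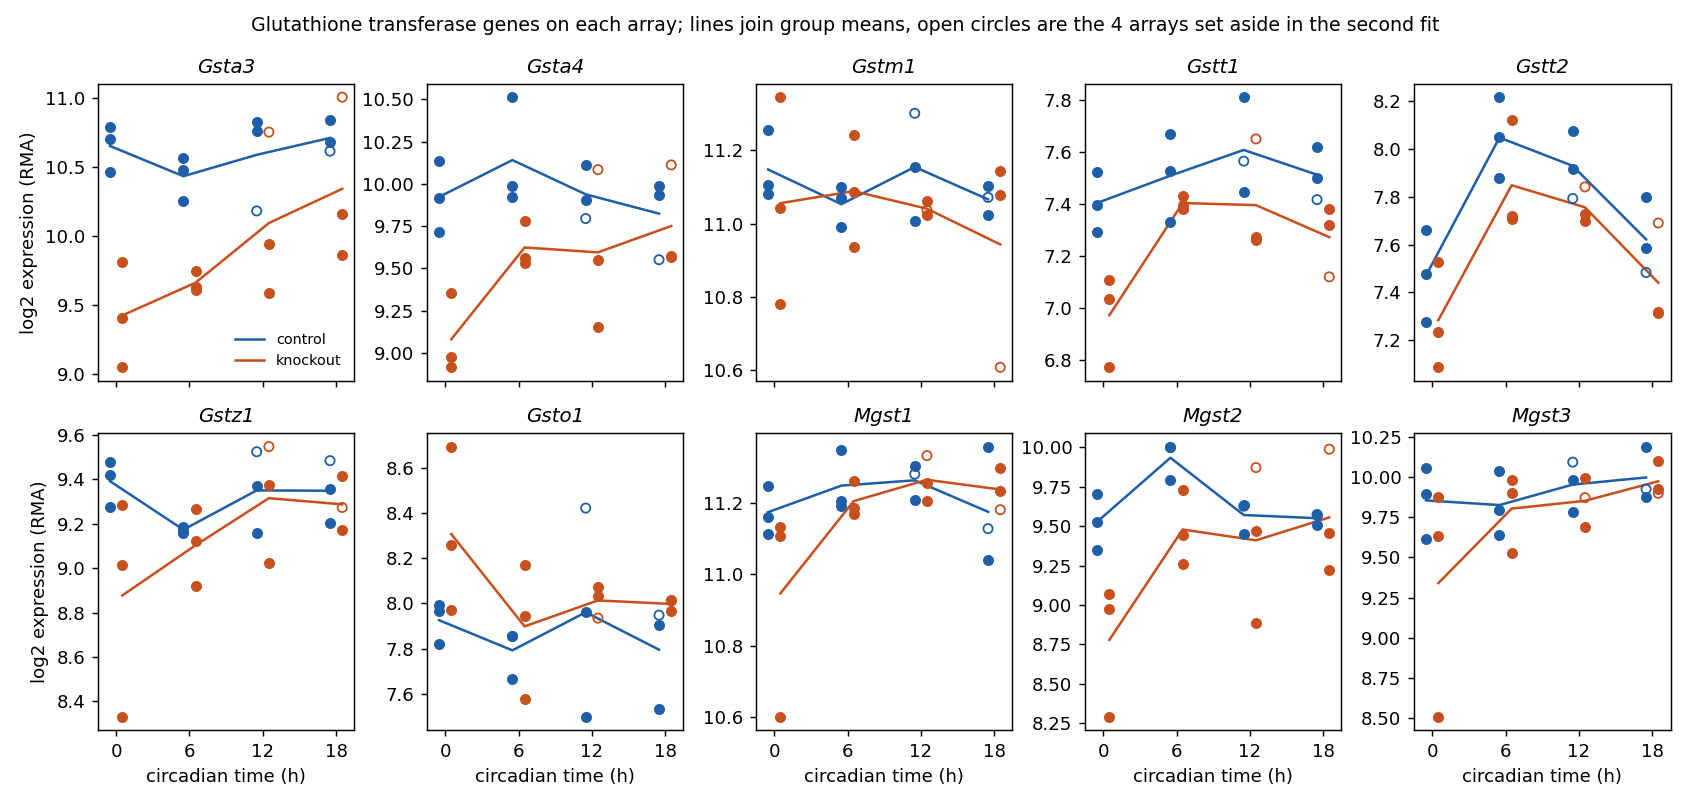
Log2 expression of the 10 genes on each of 24 arrays against circadian time in hours, control in blue and knockout in orange, with lines through the means of 3 arrays and open circles for the 4 arrays that lie toward the other genotype. Gsta3 at CT0 and CT6 shows all knockout arrays (9.05 to 9.81) below all controls (10.25 to 10.79), and Gstt2 shows the same course in both genotypes with its lowest means at CT0.

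The upstream sequence of Gsta3 is shown because it is the gene with the largest genotype difference here, with that of Mgst1, which holds the same motif, and that of Mgst2, which does not. Each is the 250 bases before a RefSeq transcription start of assembly GRCm38.p6, 5′ to 3′ on the gene's own strand, with matches to the searched motifs in capitals. Gsta3 lies at chr1:21240335-21240584 (+ strand), Mgst1 at chr6:138140277-138140526 (+ strand) and Mgst2 at chr3:51660929-51661178 (+ strand). The Mgst2 window lies inside the gene, which reaches from 51636912 to 51682675, so the sequence before its outermost start was not searched.
Gsta3: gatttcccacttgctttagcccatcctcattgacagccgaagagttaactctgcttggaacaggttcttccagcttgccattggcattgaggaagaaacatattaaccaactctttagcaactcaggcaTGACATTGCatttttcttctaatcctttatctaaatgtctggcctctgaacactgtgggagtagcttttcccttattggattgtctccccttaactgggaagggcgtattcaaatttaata
Mgst1: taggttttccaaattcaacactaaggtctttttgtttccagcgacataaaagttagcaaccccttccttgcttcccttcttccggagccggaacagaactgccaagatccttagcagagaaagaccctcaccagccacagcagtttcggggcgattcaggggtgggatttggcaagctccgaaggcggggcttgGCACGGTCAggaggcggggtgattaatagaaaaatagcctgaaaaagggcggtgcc
Mgst2: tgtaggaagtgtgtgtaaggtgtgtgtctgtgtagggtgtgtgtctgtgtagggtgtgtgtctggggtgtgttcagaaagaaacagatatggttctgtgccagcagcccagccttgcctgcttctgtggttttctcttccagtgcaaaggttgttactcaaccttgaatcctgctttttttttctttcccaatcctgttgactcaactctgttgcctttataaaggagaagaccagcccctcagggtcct

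The letters TGACNNNGC, the core of an antioxidant response element, were found in Gsta3 from -121 to -113 and, on the other strand, in 1 of the 2 Mgst1 windows from -56 to -48, counted from the start site. They occur on either strand in 10.2% of all 32851 upstream windows of this length. The E-box CACGTG (6.02% of all windows) and the REV-ERB and ROR element core TAGGTCA (2.23%) were in none of the 11 windows of 8 of the genes. Gsta4 and Gstt2 had no window and were not searched. The Gstt1 window, like that of Mgst2, lies inside its gene (75783813 to 75798584 on chromosome 10). The Gsta3 window ends at 21240584, a little past the outermost start of its gene at 21240565. No match overlapped another motif, and a match is a description of letters, not a bound site.

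Gsta4 is the alpha class enzyme known for conjugating 4-hydroxynonenal, an aldehyde of lipid peroxidation. Control arrays read 9.91, 10.14 and 9.72 at CT0, 9.92, 10.51 and 9.99 at CT6, 9.80, 9.91 and 10.11 at CT12, and 9.94, 9.98 and 9.55 at CT18. Knockout arrays read 8.98, 9.35 and 8.92 at CT0, 9.78, 9.56 and 9.53 at CT6, 10.08, 9.15 and 9.55 at CT12, and 9.57, 9.57 and 10.11 at CT18. As for Gsta3, the groups did not overlap at CT0 and CT6, and the same knockout arrays were the high ones at CT12 and CT18. The mean genotype difference was -0.44 ± 0.10 (SE), and -0.60 ± 0.09 without the 4 arrays. At CT0 it was -0.84 ± 0.20, and -0.98 ± 0.22 without knockout replicate 2 of that time. Across the 24 arrays Gsta4 and Gsta3 had a Pearson correlation of 0.73, and 0.51 after group means were removed.

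The alpha class genes Gsta1 and Gsta2 have no probe set of their own here. The annotation gives 4 probe sets to several alpha class genes together, and no gene was named from these. How far the Gsta3 probes also detect such close relatives was not tested.

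Gstm1, of the mu class, acts on a wide range of electrophiles. It read between 10.99 and 11.30 in control fat and between 10.61 and 11.35 in knockout fat, and the genotypes overlapped at all 4 times. Its mean genotype difference was -0.07 ± 0.06 (SE), and -0.01 ± 0.06 without the 4 arrays. The knockout minimum was replicate 3 at CT18, one of these 4. Gstm1 had a correlation of -0.01 with Gsta3 over the 24 arrays.

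Gstt1 and Gstt2 are theta class genes that lie close together in the genome. Gstt1, known for acting on small halogenated compounds, read 7.29, 7.52 and 7.40 in control fat at CT0, 7.53, 7.33 and 7.67 at CT6, 7.56, 7.45 and 7.81 at CT12, and 7.62, 7.50 and 7.42 at CT18. In knockout fat it read 7.04, 6.77 and 7.11 at CT0, 7.43, 7.38 and 7.40 at CT6, 7.65, 7.27 and 7.26 at CT12, and 7.38, 7.32 and 7.12 at CT18. Knockout and control did not overlap at CT0 and CT18, and 11 of 12 knockout arrays read less than the mean control of the same time. The mean genotype difference was -0.25 ± 0.06 (SE), and -0.28 ± 0.06 without the 4 arrays. At CT18 the set-aside knockout array was the lowest of its group for Gstt1, not the highest as for Gsta3.

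Gstt2 was the gene that changed with circadian time. In control fat it read 7.27, 7.48 and 7.66 at CT0, 8.22, 7.88 and 8.05 at CT6, 7.79, 8.08 and 7.92 at CT12, and 7.80, 7.59 and 7.48 at CT18. In knockout fat it read 7.24, 7.09 and 7.53 at CT0, 7.71, 7.72 and 8.12 at CT6, 7.84, 7.70 and 7.73 at CT12, and 7.32, 7.31 and 7.69 at CT18. All 6 arrays of CT6 lay above all 6 of CT0, whatever the genotype. These times were picked as those of its highest and lowest mean, and the share of all genes so separated was not counted. The separation is thus a description that adds nothing to the test of time. The mean over both genotypes was 7.38 ± 0.21 (SD, n = 6) at CT0 and 7.95 ± 0.21 at CT6, a 1.49-fold difference, and lay at 7.84 ± 0.14 at CT12 and 7.53 ± 0.20 at CT18.

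The limma F test of time over both genotypes passed for Gstt2 (adjusted p = 0.0124), and for 0.883% of all genes. Of the 10 transferase genes it was the 1 that passed. The call held whichever of the 24 arrays was left out, and also without the 4 arrays (adjusted p = 0.0219), a fit in which 0.376% of all genes passed. CT12 minus CT0 was 0.47 ± 0.10 (SE, adjusted p = 0.0342 by limma), a contrast that passed for 1 of the 10 genes and for 0.532% of all genes (0.436% upward). This second call was lost without the 4 arrays (adjusted p = 0.0644), with all probe sets fitted (0.0751), and on leaving out any 1 of 9 arrays: control replicates 1 and 2 at CT0, control replicates 2 and 3 at CT12, knockout replicates 1 and 2 at CT0 and each knockout replicate at CT12. CT18 minus CT6 was -0.42 ± 0.10 and did not pass (adjusted p = 0.0517), so that contrast had 0 of the 10 genes, against 0.702% of all genes (0.246% upward and 0.456% downward). It passed on leaving out knockout replicate 2 or 3 at CT0 or knockout replicate 3 at CT18. By limma it also passed with quantile normalization (adjusted p = 0.0478) and with genes at or above the median level only (0.0376). So it did with a replicate block (0.0460) or trend and robust estimation (0.0487), but not without the 4 arrays (0.129) or with all probe sets fitted (0.0975).

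By genotype, its highest mean was at CT6 and its lowest at CT0 in each, 0.58 apart in control and 0.56 apart in knockout fat. CT12 minus CT0 was 0.46 ± 0.14 (SE) in control and 0.47 ± 0.14 in knockout fat, and CT18 minus CT6 was -0.43 ± 0.14 and -0.41 ± 0.14. The genotype difference was between -0.20 and -0.17 at the 4 times, with SE 0.14 at each, and without the 4 arrays it was -0.28 ± 0.16 at CT12 and -0.38 ± 0.16 at CT18. Within 1 genotype the F test of time did not pass for Gstt2 (limma adjusted p = 0.411 in control and 0.169 in knockout fat), nor for any other of the 10 genes, against 0.0602% of all genes in control and 0.0702% in knockout fat. With an interaction p of 0.999 before adjustment, no change of the time course by genotype was detectable with 3 arrays a group.

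Gstz1, of the zeta class, is maleylacetoacetate isomerase, an enzyme of tyrosine breakdown. It read 9.16 to 9.52 in control fat and 8.33 to 9.55 in knockout fat, with overlap at all 4 times. The mean genotype difference of -0.17 ± 0.09 (SE) depended on knockout replicate 2 at CT0, which read 8.33 where the other knockouts of CT0 read 9.29 and 9.01. Without that array the mean was -0.10 ± 0.06, and the difference at CT0 went from -0.51 ± 0.17 to -0.24 ± 0.14.

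Gsto1, of the omega class, reduces dehydroascorbate and protein thiol adducts rather than conjugating electrophiles. It was the 1 gene of the set with a higher mean in knockout fat, by 0.19 ± 0.09 (SE), and by 0.27 ± 0.10 without the 4 arrays. It read 7.50 to 8.42 in control and 7.58 to 8.70 in knockout fat, and 2 of 12 knockout arrays read less than the mean control of the same time. Knockout replicate 2 at CT0 gave the highest value, 8.70. Without it the mean was 0.14 ± 0.09. At CT18 all 3 knockout arrays (8.01, 7.97 and 8.01) lay above all 3 controls (7.90, 7.53 and 7.95).

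The membrane enzymes differed among themselves. Mgst2, which can make leukotriene C4 and reduces lipid peroxides, read 9.35, 9.71 and 9.53 in control fat at CT0, 10.005, 10.002 and 9.795 at CT6, 9.63, 9.45 and 9.63 at CT12, and 9.57, 9.51 and 9.57 at CT18. In knockout fat it read 8.97, 8.29 and 9.07 at CT0, 9.26, 9.73 and 9.44 at CT6, 9.87, 8.89 and 9.47 at CT12, and 9.45, 9.22 and 9.99 at CT18. Knockout lay below control without overlap at CT0 and CT6, and the high knockout arrays at CT12 and CT18 were again replicates 1 and 3. The mean genotype difference was -0.34 ± 0.11 (SE), -0.44 ± 0.10 without the 4 arrays and -0.28 ± 0.10 without knockout replicate 2 at CT0.

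Mgst1, an abundant enzyme of the endoplasmic reticulum and outer mitochondrial membrane, read 11.04 to 11.36 in control and 10.60 to 11.33 in knockout fat. Its mean genotype difference was -0.05 ± 0.05 (SE), and -0.01 ± 0.04 without knockout replicate 2 at CT0, the array at 10.60. Mgst3, known for peroxidase activity on lipid hydroperoxides, read 9.62 to 10.19 in control and 8.51 to 10.10 in knockout fat. Its mean difference was -0.17 ± 0.11, and -0.06 ± 0.07 without the same array, at 8.51. For both genes the genotypes overlapped at all 4 times. Without knockout replicate 2 at CT0 the mean genotype difference was smaller in size for every gene of the set but Gsta4. For Gsta3 it went from -0.72 ± 0.13 to -0.67 ± 0.13, and for Gsta4 from -0.44 ± 0.10 to -0.48 ± 0.10. The part of tissue composition in these values was not tested.

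**Figure D2:**
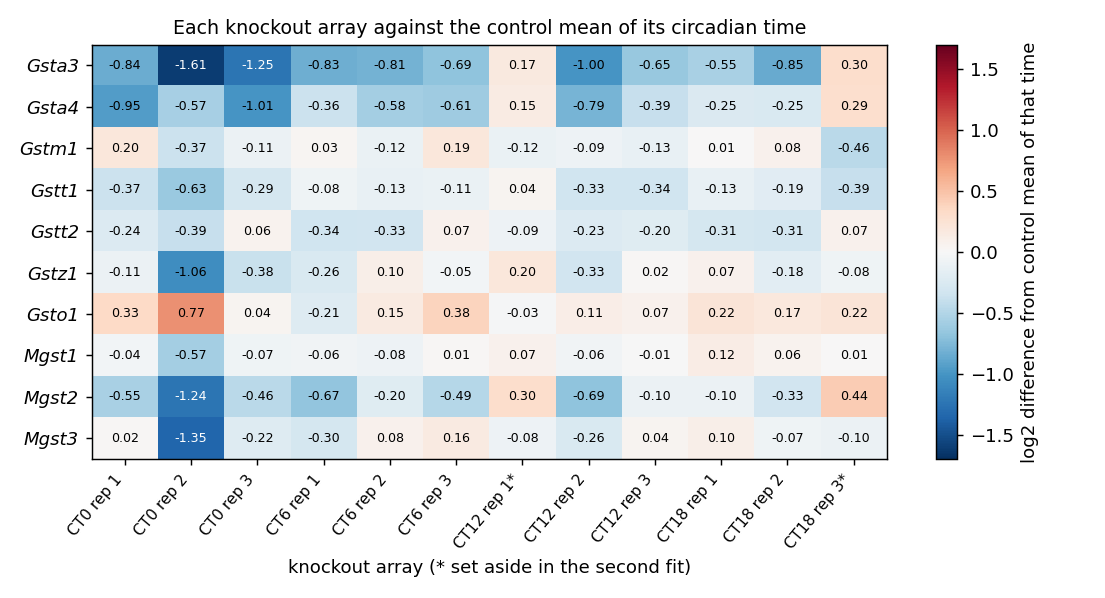
Log2 difference of each of the 12 knockout arrays (columns) from the control mean of its circadian time for the 10 genes (rows), with a star on the 2 knockout arrays among the 4 set aside. Gsta3, Gsta4 and Mgst2 are below 0 on every array without a star and above 0 on both starred ones, and 7 genes, all but Gsta4, Gstm1 and Gsto1, have their lowest value on replicate 2 at CT0.

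Across the set, 9 of 10 genes had a mean genotype difference below 0, against 49.4% of all genes (50.6% without the 4 arrays), and the median was -0.18 against 0.00077. The difference was below 0 at each of the 4 times for 6 genes, against 7.77% of all genes, and for 6 without the 4 arrays, against 8.34%. Knockout arrays lay below controls without overlap for 4 of 10 genes at CT0 (4.47% of all genes), 3 at CT6 (6.27%), 0 at CT12 (5.12%) and 1 at CT18 (4.25%). They lay above controls without overlap for 0 genes at CT0 (6.28% of all genes), CT6 (5.01%) and CT12 (2.97%), and for Gsto1 at CT18 (4.33%). Without the 4 arrays, which leaves 2 against 2, there were 4 such genes at CT12 (23.7% of all genes) and 5 at CT18 (18%), and 1 gene lay above at CT12 (15.8%) and at CT18 (18.2%). Since Gsta3 was chosen by this contrast, these shares describe the set and are not evidence about it. As background, the mean difference passed the limma threshold for 0.0201% of all genes, a share from which nothing is read about these genes.

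**Figure D3:**
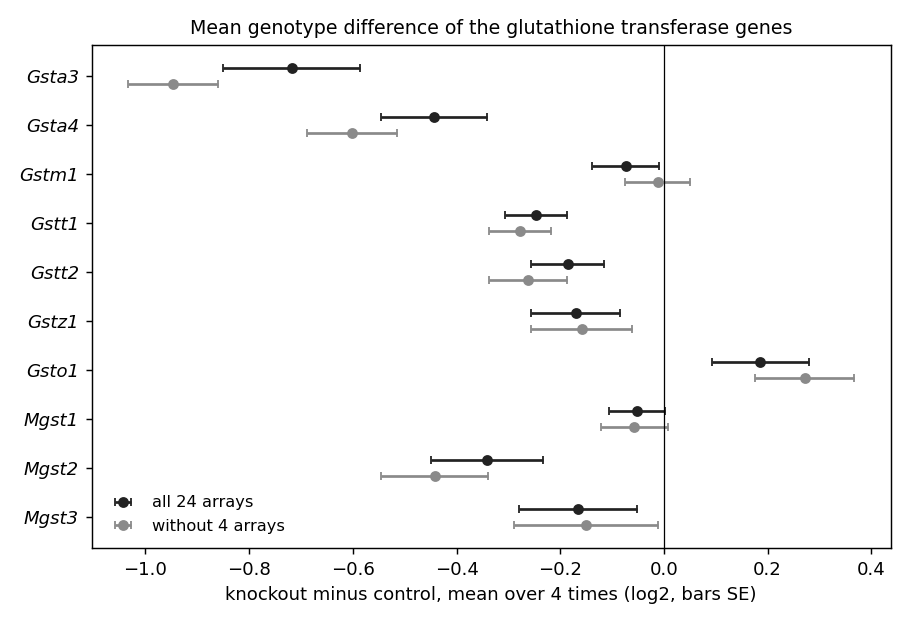
Mean log2 difference, knockout minus control over the 4 times, for the 10 genes with standard errors, from all 24 arrays (black) and without the 4 arrays (grey). Gsta3 moves from -0.72 to -0.95 and Gsta4 from -0.44 to -0.60, and Gsto1 is the 1 gene above 0.

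Besides Gstt2, time changed none of the 10 genes after adjustment over all genes. Before adjustment, limma's F test was under 0.05 for 4 genes over both genotypes (Gsta3, Gstt1, Gstt2 and Mgst2; 16.1% of all genes), 1 in control fat (Gstt2; 5.8%) and 6 in knockout fat (13.4%). The 6 in knockout fat were Gsta3, Gsta4, Gstt1, Gstt2, Mgst1 and Mgst2. Without knockout replicate 2 at CT0 the count was 3 (14.2% of all genes), and without the 4 arrays it was 5 (9.23%). The interaction test gave 0 of 10 at an unadjusted p under 0.05 (2.98% of all genes), and 0 of 19938 genes passed it after adjustment. In knockout fat 8 of the 10 genes had their lowest mean at CT0, against 27.6% of all genes, and 7 without replicate 2 of that group, against 30% of all genes. In control fat 4 of the 10 did, against 32.4% of all genes. Without the 4 arrays the counts were 8 in knockout (27.4% of all genes) and 5 in control fat (32.1%). For Gsta3 CT12 minus CT0 was 0.67 ± 0.26 (SE) in knockout and -0.06 ± 0.26 in control fat, and for Mgst2 0.63 ± 0.22 and 0.04 ± 0.22. Without the 4 arrays these were 0.34 ± 0.17 and 0.14 ± 0.17 for Gsta3, and 0.40 ± 0.21 and 0.01 ± 0.21 for Mgst2. Without knockout replicate 2 at CT0 the knockout values were 0.48 ± 0.28 and 0.39 ± 0.21. A difference of these courses by genotype was not shown by the interaction test.

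After group means were removed, 30 of 45 pairs of the 10 genes correlated above 0 over the 24 arrays, with a median of 0.34, and 0.21 without knockout replicate 2 at CT0. Gsta3 and Mgst2 were at 0.72, and 0.68 without that array. Mgst1 and Mgst3 were at 0.80, and 0.43 without it. The genes most like Gsta3 over the 24 arrays were the potassium channel gene Kcnj15 (r = 0.94), the flavin monooxygenase gene Fmo1 (0.94), the carboxylesterase gene Ces1d (0.92), the leucine breakdown gene Ivd (0.90), the fatty acid elongation gene Hacd2 (0.90), asparagine synthetase Asns (0.89), Eci3 (0.88) and Papss2 (0.88), which makes the sulfate donor PAPS. With group means removed these 8 lay between 0.76 and 0.90. Of the 4 most opposite genes 1 has a clone-based name, and the others were Litaf (-0.84), Trpv2 (-0.82) and Zim1 (-0.82). All share the arrays and the genotype difference, so these values are descriptions. Gsta4 ranked 78 and Mgst2 86 of 19937 genes by this measure, and Gsto1 19500.

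In the wider glutathione pathway, genotype differences lay on both sides of 0. Of 17 measured genes among other transferases and MAPEG proteins, 8 had a mean genotype difference below 0 and the median was 0.0049. The mu class gene Gstm6 was at -0.48 ± 0.12 (SE), Gstm7 at 0.28 ± 0.17, the leukotriene C4 synthase gene Ltc4s at 0.24 ± 0.13 and the prostaglandin D synthase gene Hpgds at 0.16 ± 0.13. Of 18 genes of glutathione synthesis, breakdown and reduction 6 were below 0 (median 0.024), among them Gclc, the catalytic subunit of the rate-limiting enzyme, at -0.07 ± 0.06. The largest difference in this list was above 0, that of Anpep at 0.37 ± 0.20. Of 12 genes of peroxidases and glutaredoxins 6 were below 0 (median 0.0050). The glutaredoxin gene Glrx was at 0.59 ± 0.16, and 0.86 without the 4 arrays, and the phospholipid hydroperoxidase gene Gpx4 at -0.21 ± 0.07.

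Targets and regulators had medians near that of all genes. Of 24 other NRF2 targets, 14 were below 0 with a median of -0.0076. The aldehyde oxidase gene Aox1 was at -0.34 ± 0.08 (SE), the epoxide hydrolase gene Ephx1 at -0.25 ± 0.10 and the quinone reductase gene Nqo1 at -0.03 ± 0.05. The highest of these targets was Pgd, at 0.16 ± 0.12, and 0.34 without the 4 arrays. Of 19 regulators 7 were below 0, with a median of 0.0075, and Nfe2l2, which encodes NRF2, was at 0.04 ± 0.04. None of these lists had a member past the threshold for the interaction. Of the cell type markers, 10 of 10 endothelial genes had a mean genotype difference below 0 (median -0.16), against 49.4% of all genes. The counts were 8 of 8 for lymphocyte, 6 of 7 for thermogenic adipocyte (median -0.21) and 9 of 11 for adipocyte genes (median -0.05). Of smooth muscle genes 5 of 6 were below 0, of progenitor and fibroblast genes 6 of 9 and of mesothelial genes 4 of 6. Fewer were below 0 among macrophage (5 of 12), mammary and skin epithelial (4 of 14), skeletal muscle (2 of 7), liver (2 of 8) and uterine epithelial genes (0 of 6). Below the median gene level lay 4 of 8 lymphocyte, 4 of 7 thermogenic and 4 of 7 skeletal muscle markers. So did 5 of 8 liver, 9 of 14 mammary and skin epithelial and 6 of 6 uterine epithelial markers. The summed endothelial level was 11.58 to 12.05 in control and 11.35 to 12.06 in knockout groups. The part of these cells in the values of the transferase genes was not tested.

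**Figure D4:**
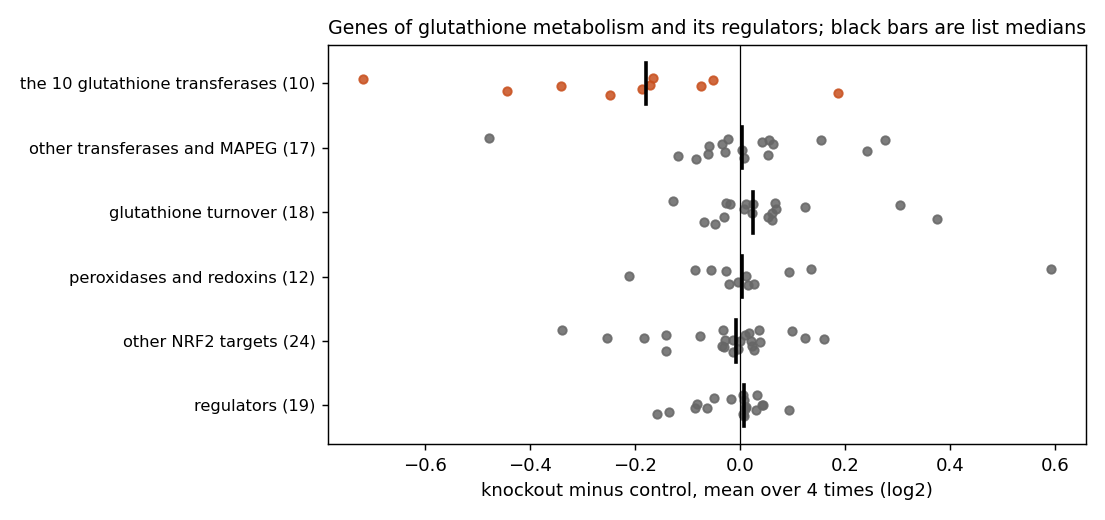
Mean log2 difference, knockout minus control, of the 10 transferase genes (orange) and of 5 lists of glutathione and xenobiotic genes (grey), each point a gene and each black bar a list median. The median of the 10 is -0.18, and those of the other lists lie between -0.0076 and 0.024.

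Circadian time changed few pathway genes. The F test of time passed for 0 of 17 other transferases, 0 of 18 genes of glutathione turnover, 0 of 12 peroxidases and glutaredoxins, 1 of 24 NRF2 targets and 4 of 19 regulators, against 0.883% of all genes. The NRF2 target was Sqstm1, an autophagy receptor gene, which fell from CT6 to CT18 by 0.34 (SE 0.05, limma adjusted p = 0.0034). The regulators were Pparg, the adipogenic nuclear receptor, and the clock-controlled PAR bZIP genes Dbp, Tef and Hlf. All 4 rose from CT0 to CT12, Dbp by 1.06 ± 0.11 (SE), Hlf by 0.94 ± 0.11, Pparg by 0.54 ± 0.10 and Tef by 0.49 ± 0.07, as Gstt2 did by 0.47 ± 0.10. Of the cell type markers outside the pathway, the endothelial gene Emcn passed for time (limma adjusted p = 0.0446). From CT6 to CT18 the cystine transporter subunit gene Slc3a2 fell by 0.36 (SE 0.08), the aryl hydrocarbon receptor gene Ahr fell by 0.34 (SE 0.07), and Cth, which makes cysteine from cystathionine, rose by 0.61 ± 0.13. Their limma adjusted p-values were 0.0387, 0.0334 and 0.0258. The theta class genes other than Gstt2 did not pass: CT12 minus CT0 was 0.15 ± 0.06 for Gstt3, 0.18 ± 0.06 for Gstt4 and 0.31 ± 0.08 for Gstt1.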

How the data were processed

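RNA of inguinal fat was hybridised to Affymetrix arrays, 1 per mouse, after amplification of 50 ng, per the labels' protocols. The deposited values are log2 expression that the authors made with RMA, per the submitters' processing notes; no source used here gives its version or settings. No scanner files were used, so background correction could not be varied. Of 35556 probe sets, 21789 had 1 gene symbol, 1621 several and 12146 none in the platform annotation; a gene took its probe set with the highest mean. A cell-means model of the 8 groups was fitted to 19938 genes over all 24 arrays with limma 3.58.1 in R 4.3.3, with 16 residual and 5.03 prior degrees of freedom, Benjamini-Hochberg adjustment over all genes and a threshold of 0.05. No replicate block was used. RefSeq tables gave symbols and upstream sequences (8 of 10 genes). The fit was tested on simulated data. The members, gene lists, the 4 arrays set aside and the rule for named genes were chosen with earlier results of these data known. By that rule all 10 genes were named, and list members that pass or up to 4 with the largest difference. The 8 genes most and the 4 least like Gsta3 were also named. Gclc, Nqo1, Aox1, Ephx1, Nfe2l2, Gstt3, Gstt4, Anpep and Pgd were added after values were seen. The number of arrays limits the precision.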

Additional observations from a re-analysis of the deposited data

Results flagged for a closer look

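The genotype difference of Mgst1 had opposite signs at 2 times. Each knockout array read less than the mean control at CT0 (-0.23 ± 0.11, SE) and more than it at CT18 (0.0624, SE 0.11). The pairwise difference between these times was not tested on its own. In the limma F test of genotype by time Mgst1 did not pass (adjusted p = 1.00), and without knockout replicate 2 at CT0 the difference at CT0 was -0.05 ± 0.09.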

How the results depend on the processing

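The alternatives were leaving out each array in turn, leaving out the 4 arrays, quantile normalization, keeping genes at or above the median level, a replicate block, all probe sets, and eBayes with trend and robust estimation. The 10 mean genotype differences kept their sign under each of these, and that of Gsta3 went from -0.72 to -0.95 without the 4 arrays. A further fit left out the 4 arrays together with knockout replicate 2 at CT0. There Gstm1 changed sign, to 0.02 ± 0.05 (SE), and the other genes kept theirs. With 1 array left out, the mean was -0.80 to -0.65 for Gsta3, -0.50 to -0.39 for Gsta4, -0.40 to -0.27 for Mgst2, -0.28 to -0.22 for Gstt1, -0.22 to -0.16 for Gstt2 and 0.13 to 0.24 for Gsto1. It was -0.22 to -0.10 for Gstz1, -0.23 to -0.06 for Mgst3, -0.11 to -0.03 for Gstm1 and -0.07 to -0.01 for Mgst1. The count of transferase genes that passed for time over both genotypes was 1 in every fit, and that for time within a genotype or for the interaction 0. CT12 minus CT0 had 0 calls without the 4 arrays and with all probe sets, and 0 to 1 with 1 array left out. CT18 minus CT6 had 1 call, Gstt2, with quantile normalization, with genes at or above the median level, with the replicate block and with trend and robust estimation, and 0 to 1 with 1 array left out. The adjusted p of Gstt2 for time ranged from 0.0062 to 0.0392 over all alternatives. Over all genes 176 passed for time; 75 did without the 4 arrays, 69 probe sets did when all were fitted, and 88 to 291 genes did with 1 array left out. Same-numbered arrays of both genotypes at a time had deviations that correlated above 0.1 in 5 of 12 pairs, with r from -0.37 to 0.37. Of 24 arrays, 10 correlated best with their own number. A pairing of the mice by number was not shown, and a check of this kind cannot exclude it. With the replicate block 154 genes passed for time. No gene of the set has a second probe set, so that alternative was not run. At 3 arrays a group and a log2 SE of 0.26 for Gsta3 at a single time, changes over the day that differ by genotype are poorly resolved.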

Other observations

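The mean level of 11 adipocyte markers was set beside each of the 10 genes over the 24 arrays, after knockout replicate 2 at CT0 had been seen to be low for both, so the correlations are descriptions with no test. Over all arrays Pearson's r was 0.86 for Mgst3, 0.82 for Gstz1 and 0.79 for Mgst1, with Spearman's rho of 0.60, 0.54 and 0.42. Without the 2 arrays farthest from the median, knockout replicate 2 at CT0 and control replicate 1 at CT12, r was 0.49, 0.46 and 0.30, so the size of these relations rests on those arrays. For Gsta3 r was 0.33, and -0.09 without the 2 arrays. For Gsto1, whose highest value is on that knockout array, r was -0.15, and 0.63 without the 2 arrays.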
